A study of Schizosaccharomyces pombe with 9 samples.

Results

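The genes examined here are protein-coding genes of fission yeast (Schizosaccharomyces pombe) that lie near the left end of chromosome I. They were taken by identifier, as the rows of the count table whose systematic names begin with SPAC212, SPAC977, SPAC1F8, SPAC11D3 or SPAC5H10, with 1 such row left out. The genes kept are 54 of the 4915 rows of the table, and 3, 14, 7, 18 and 12 of them carry those names in that order. In the RefSeq annotation of assembly ASM294v3 all 54 matched, and they are ordered here as annotated there, from the chromosome end inward; 24 of them have a gene symbol. The 3 genotypes were compared by sequencing of poly(A) RNA from cells in log phase in YEA, a rich medium, at 32 °C. The clr4oe libraries (2 analysed) come from a strain with the TetR-Mit1 fusion and a further change labelled clr4oe. The K587A libraries (3) come from a strain whose fusion carries the lysine-to-alanine substitution K587A, and the TetR-Mit1 libraries (3) come from a strain with the unaltered fusion. All 3 genotypes therefore express a TetR-Mit1 fusion, and none is a strain without it. The labels give 1 strain number for each genotype, and an effect of the strain cannot be told apart from that of the genotype. Nothing in the labels says that the samples of a genotype were separate cultures, and the p-values measure the spread between these samples, which may be technical.

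In fission yeast the regions next to the telomeres are packed into heterochromatin, which is marked by methylation of histone H3 at lysine 9. Clr4 is the enzyme that deposits this mark. The Clr4 mark is read by chromodomain proteins, and SHREC, a complex that joins the remodeler Mit1 to the histone deacetylase Clr3, keeps the marked nucleosomes poorly transcribed. Many genes near the chromosome ends code for transporters and for enzymes of alternative carbon use and detoxification, are expressed at low levels in rich medium, and are induced by stress or starvation. TetR is a bacterial DNA-binding protein that carries its fusion partner to Tet operator sites. The K587A substitution lies in the ATPase part of Mit1.

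Counts per library ranged from 13838210 to 14401186 in clr4oe, from 10367168 to 15920802 in K587A and from 13086567 to 14181298 in TetR-Mit1. Pearson's r of log2 expression was 0.9970 to 0.9978 between libraries of a genotype and 0.945 to 0.982 between genotypes, a description across genes, which are not replicates. Levels were read at the 2 genes that the labels name, and counts per gene cannot show the K587A substitution itself. Clr4 had 279 ± 7.70 CPM in clr4oe (SD, n = 2), 58.1 ± 2.49 CPM in K587A (SD, n = 3), against 56.1 ± 4.08 CPM in TetR-Mit1 (SD, n = 3), and its log2 fold change in clr4oe over TetR-Mit1 was 2.31 ± 0.05 SE, edgeR adjusted p = 1.59e-21. Mit1 had 350.2 ± 9.16 CPM in clr4oe (SD, n = 2), 534 ± 14.2 CPM in K587A (SD, n = 3), against 386 ± 6.72 CPM in TetR-Mit1 (SD, n = 3), and was lower in clr4oe (log2 -0.14 ± 0.04 SE, edgeR adjusted p = 0.0029) and higher in K587A (log2 0.47 ± 0.03 SE, edgeR adjusted p = 2.37e-11) than in TetR-Mit1. The counts are from whole cultures, so fewer cells that express a gene and less RNA per cell cannot be told apart.

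Levels are given as TMM-scaled CPM (counts relative to library size), and genes were tested with edgeR's quasi-likelihood test across the whole table, with Benjamini-Hochberg adjustment over all 4887 tested genes and a threshold of 0.05. Of the 54 genes, 52 passed the filter on low counts. In clr4oe against TetR-Mit1, 41 of the 52 passed the threshold, 17 higher and 24 lower. Over all tested genes 65.1% passed, 32.1% higher and 33% lower, against 78.8%, 32.7% and 46.2% of the 52. In K587A against TetR-Mit1, 33 of the 52 passed, 5 higher and 28 lower. The whole-table shares were 52.3% in all, 27.3% higher and 25% lower, against 63.5%, 9.62% and 53.8% of the 52. In clr4oe against K587A, 35 passed, 22 higher and 13 lower, which is 67.3% of the 52 beside 71.7% of all tested genes. The share of higher genes there was 42.3% beside 35.4% of all genes, and the share of lower genes was 25% beside 36.4%. The median log2 fold change of the 52 genes was -0.11 in clr4oe and -0.21 in K587A against TetR-Mit1, beside -0.0026 and 0.0058 over all genes. In clr4oe against TetR-Mit1 the libraries of the genotypes did not overlap in 46 of the 52 genes (88.5%, with 74.9% of all tested genes), with clr4oe above in 19 (36.7% of all) and below in 27 (38.1% of all). In K587A against TetR-Mit1 they did not overlap in 37 (71.2%, with 58.7% of all), with K587A above in 6 (30.2% of all) and below in 31 (28.5% of all). In clr4oe against K587A they did not overlap in 37 (71.2%, with 79.2% of all), with clr4oe above in 24 (38.7% of all) and below in 13 (40.5% of all). No test of the group of genes as such was made. The comparisons share libraries, and their values are given side by side.

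Large changes made up a bigger share of these genes than of the whole table. Changes of at least 2-fold that also passed the threshold were found in 10 of the 52 genes in clr4oe against TetR-Mit1 (19.2%, with 4.32% of all tested genes), 2 higher and 8 lower, where 1.25% and 3.07% of all genes were. In K587A against TetR-Mit1 they were found in 10 genes (19.2%, with 1.8% of all), 1 higher and 9 lower, where 0.389% and 1.41% of all genes were. In clr4oe against K587A they were found in 13 genes (25%, with 7.8% of all), 10 higher and 3 lower, where 3.68% and 4.11% of all genes were. The plot of fold changes along the chromosome shows where they lie.

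**Figure D1:**
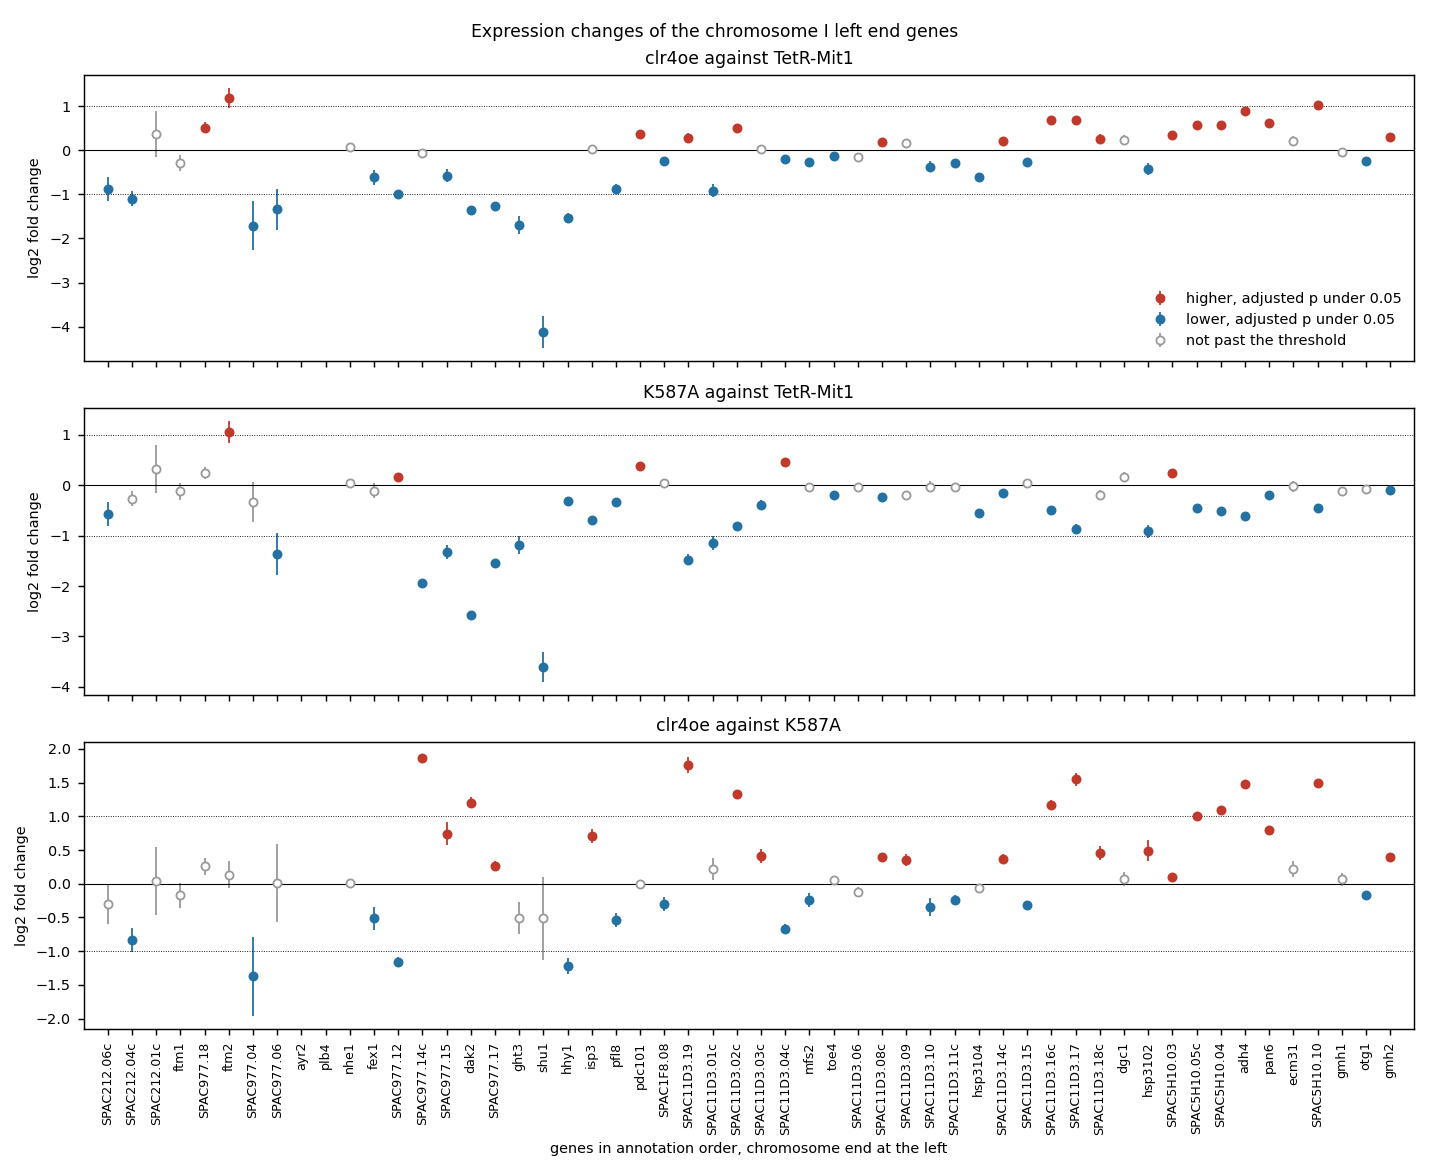
Log2 fold change (y axis) of each tested gene with its SE (bars), in annotation order from the chromosome end (x axis), for the 3 comparisons; filled points passed an adjusted p of 0.05, open points did not, and dotted lines mark 2-fold. Ayr2 and plb4 were not tested and have no point. In K587A the 9 genes from SPAC977.14c to pfl8, consecutive among the genes kept, were all lower than in TetR-Mit1. In clr4oe the 5 genes from SPAC5H10.03 to pan6 were all higher than in TetR-Mit1. Of all tested genes 25% passed as lower in K587A and 32.1% as higher in clr4oe.

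Among the genes with a row in the count table, the 10 nearest the chromosome end had at most 18.5 CPM in any library. SPAC212.06c, annotated as a DNA helicase-like protein, had 2.07 and 2.72 CPM in clr4oe, 2.67, 3.08 and 3.16 CPM in K587A, and 3.97, 5.60 and 3.61 CPM in TetR-Mit1. Both clr4oe libraries and all 3 K587A libraries were below every TetR-Mit1 library. The fold change in clr4oe was log2 -0.87 ± 0.27 SE, edgeR adjusted p = 0.0069, and without TetR-Mit1 replicate 2 or clr4oe replicate 1 it was -0.66 and -0.68 and no longer passed. In K587A it was log2 -0.56 ± 0.23 SE, edgeR adjusted p = 0.0454. That call was lost with DESeq2 (adjusted p = 0.0680), with upper-quartile scaling (edgeR adjusted p = 0.0502), and without TetR-Mit1 replicate 1 or 2 (log2 -0.63 and -0.36) or K587A replicate 1, 2 or 3 (log2 -0.49, -0.60 and -0.60). The uncharacterised gene SPAC212.04c had 7.37 and 7.16 CPM in clr4oe, 14.9, 9.77 and 14.7 CPM in K587A, and 16.3, 17.2 and 13.3 CPM in TetR-Mit1. Both clr4oe libraries were below all others, and the gene fell in clr4oe (log2 -1.10 ± 0.17 SE, edgeR adjusted p = 5.59e-06 against TetR-Mit1 and -0.84 ± 0.18 SE, edgeR adjusted p = 0.000215 against K587A). In K587A the log2 fold change was -0.26 ± 0.14 SE, edgeR adjusted p = 0.125, and it passed without K587A replicate 1 (log2 -0.39, edgeR adjusted p = 0.0380).

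Ftm2 and its neighbour SPAC977.18 went the other way. Ftm2 (SPAC977.02), annotated as a protein with transmembrane helices, had 5.65 and 7.23 CPM in clr4oe, 6.23, 5.90 and 5.30 CPM in K587A, and 2.37, 3.64 and 2.47 CPM in TetR-Mit1. Every clr4oe and K587A library lay above every TetR-Mit1 library, and ftm2 was the one gene of the stretch more than 2-fold higher in K587A (log2 1.06 ± 0.21 SE, edgeR adjusted p = 0.000186; log2 1.19 ± 0.23 SE, edgeR adjusted p = 6.11e-05 in clr4oe). Without TetR-Mit1 replicate 1 or 3 the K587A change was log2 0.95 and 0.97, below 2-fold. SPAC977.18, of unknown function, had 15.2 and 18.5 CPM in clr4oe, 14.3, 13.9 and 14.2 CPM in K587A, and 13.0, 11.3 and 11.4 CPM in TetR-Mit1, and rose in clr4oe (log2 0.50 ± 0.13 SE, edgeR adjusted p = 0.00125). Ftm1 ran from 5.24 to 7.85 CPM and SPAC212.01c from 0.656 to 1.30 CPM over the 8 libraries, and neither passed the threshold in any comparison.

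SPAC977.04 and SPAC977.06, both uncharacterised, had 0.286 to 1.82 and 0.408 to 2.33 CPM over the 8 libraries. SPAC977.04 had 10 and 4 counts in clr4oe, 9, 26 and 16 counts in K587A, and 22, 25 and 23 counts in TetR-Mit1. Its fall in clr4oe (log2 -1.71 ± 0.55 SE, edgeR adjusted p = 0.00889) was lost without clr4oe replicate 2 (log2 -1.22). Against K587A the clr4oe libraries of SPAC977.04 overlapped (log2 -1.37 ± 0.59 SE, edgeR adjusted p = 0.0391). That call was lost in a pairwise fit, with a replicate block and without K587A replicate 2 or 3 (log2 -1.05 and -1.24). Without clr4oe replicate 2, the library with 4 counts, the log2 fold change was -0.88. SPAC977.06 had 8 and 13 counts in clr4oe, 13, 12 and 4 counts in K587A, and 29, 32 and 20 counts in TetR-Mit1, and fell in both (log2 -1.34 and -1.36). The clr4oe call was lost without TetR-Mit1 replicate 2 (log2 -1.17) or clr4oe replicate 1 (log2 -1.01). The dehydrogenase gene ayr2 had 2 counts in a single K587A library and none elsewhere. The phospholipase gene plb4 had 0 to 4 counts per library. At these depths 3 counts correspond to 0.197 to 0.306 CPM, so differences in these 2 genes were not detectable.

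Copies elsewhere in the genome limit what counts near the end can show. For 9 of the 54 genes, SPAC212.01c, ftm2, SPAC977.04, SPAC977.06, ayr2, plb4, fex1, SPAC977.12 and SPAC977.14c, the annotation holds another gene whose protein is at least 90% identical over at least 80% of its length. The protein of SPAC212.06c falls just short, at 89.2% identity to SPAC212.11. How reads shared by such copies were counted is not given in the sources used here, and their values are uncertain to that extent. Without these 9 genes 36, 29 and 31 genes still passed the threshold in clr4oe against TetR-Mit1, K587A against TetR-Mit1 and clr4oe against K587A. The counts of 2-fold changes also drop without them, by ftm2, SPAC977.04, SPAC977.06, SPAC977.12 and SPAC977.14c where these were called. Ftm2 is the only 2-fold rise in K587A against TetR-Mit1.

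A set of ion and amide handling genes follows inward. Nhe1 (also called sod2), the plasma membrane sodium/proton antiporter that exports sodium, had 107 and 111 CPM in clr4oe, 109, 108 and 108 CPM in K587A, and 104, 104 and 104 CPM in TetR-Mit1. The libraries of both other genotypes were slightly above those of TetR-Mit1, but nhe1 did not pass the threshold in any comparison. Fex1, a fluoride export channel, had 6.68 and 6.23 CPM in clr4oe, 8.15, 9.58 and 10.2 CPM in K587A, and 9.18, 9.16 and 11.4 CPM in TetR-Mit1, with both clr4oe libraries lowest. It fell in clr4oe (log2 -0.62 ± 0.17 SE, edgeR adjusted p = 0.00243 against TetR-Mit1). SPAC977.12, an L-asparaginase, which splits asparagine into aspartate and ammonia, had 31.7 and 33.5 CPM in clr4oe, 75.1, 69.5 and 73.1 CPM in K587A, and 61.7, 70.3 and 63.0 CPM in TetR-Mit1. The clr4oe libraries held about 50.2% of the TetR-Mit1 level (log2 -0.995 ± 0.07 SE, edgeR adjusted p = 1.46e-11) and 44.9% of the K587A level (log2 -1.15 ± 0.07 SE, edgeR adjusted p = 4.36e-13). The K587A libraries overlapped those of TetR-Mit1, and their small rise (log2 0.16 ± 0.06 SE, edgeR adjusted p = 0.03) was lost with DESeq2 (adjusted p = 0.0652) and without TetR-Mit1 replicate 1 or 3 (log2 0.12 and 0.14) or K587A replicate 1 or 3 (log2 0.13 and 0.15).

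Fex1 and SPAC977.12 lie side by side, and their near-identical copies are SPBPB8B6.06c and SPBPB8B6.05c. The copy of the asparaginase gene had 12.7 ± 0.702 CPM in clr4oe (SD, n = 2), 38.9 ± 1.85 CPM in K587A (SD, n = 3), against 37.5 ± 1.67 CPM in TetR-Mit1 (SD, n = 3), and fell in clr4oe (log2 -1.57 ± 0.10 SE, edgeR adjusted p = 5.22e-13). The copy of fex1 also fell there (log2 -0.42 ± 0.15 SE, edgeR adjusted p = 0.0140). With proteins 99.7% and 100% identical, reads shared by the copies may have been left out or assigned to either copy. The separate values cannot be taken as independent.

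SPAC977.14c codes for an aldo-keto reductase, a family that reduces aldehydes and ketones with NADPH. It had 992 and 972 CPM in clr4oe, 273, 273 and 260.4 CPM in K587A, and 1056, 1027 and 1022 CPM in TetR-Mit1. K587A stood far below both other genotypes, at 26.0% of TetR-Mit1 (log2 -1.94 ± 0.04 SE, edgeR adjusted p = 1.72e-23), and clr4oe was 3.65-fold above K587A (log2 1.87 ± 0.04 SE, edgeR adjusted p = 4.87e-23). Between clr4oe and TetR-Mit1 the log2 fold change was -0.08 (edgeR adjusted p = 0.0781). That small difference passed with upper-quartile scaling (log2 -0.13, edgeR adjusted p = 0.00463) and with the replicate number as a block (log2 -0.09, edgeR adjusted p = 0.0415). Its copy SPAC750.01, whose protein is 94.5% identical, was lower in both clr4oe and K587A, with 12.9 ± 0.0473 CPM in clr4oe (SD, n = 2), 16.0 ± 1.23 CPM in K587A (SD, n = 3), against 58.8 ± 2.16 CPM in TetR-Mit1 (SD, n = 3). The copy's log2 fold changes were -2.19 ± 0.09 SE in clr4oe (edgeR adjusted p = 3.18e-16) and -1.87 ± 0.08 SE in K587A (edgeR adjusted p = 5.26e-16). The 2 copies thus had different values in clr4oe, although the difference between them was not tested.

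SPAC977.15 is annotated as a dienelactone hydrolase family protein implicated in detoxification. It had 11.03 and 12.2 CPM in clr4oe, 5.55, 8.069 and 7.23 CPM in K587A, and 15.2, 16.7 and 20.1 CPM in TetR-Mit1. The 3 genotypes did not overlap, with K587A lowest and clr4oe between K587A and TetR-Mit1 (log2 -1.32 ± 0.15 SE, edgeR adjusted p = 3.26e-08 for K587A and -0.58 ± 0.15 SE, edgeR adjusted p = 0.00144 for clr4oe against TetR-Mit1).

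Next to it lie 2 genes tied to glycerol. Dak2 codes for a dihydroxyacetone kinase, which phosphorylates the dihydroxyacetone formed from glycerol so that it can enter glycolysis. SPAC977.17 belongs to the MIP superfamily of water and glycerol channels. The annotated genes overlap on opposite strands and the strand setting of the counts is not given, so reads of the shared part may be counted for the wrong one. Dak2 had 45.6 and 42.8 CPM in clr4oe, 17.5, 21.3 and 18.7 CPM in K587A, and 116, 109.7 and 115 CPM in TetR-Mit1. The order TetR-Mit1 above clr4oe above K587A held for every library, with 38.9% of the TetR-Mit1 level in clr4oe (log2 -1.36 ± 0.07 SE, edgeR adjusted p = 6.47e-15) and 16.9% in K587A (log2 -2.56 ± 0.07 SE, edgeR adjusted p = 4.66e-20). Set directly against K587A, clr4oe was 2.30-fold higher (log2 1.20 ± 0.08 SE, edgeR adjusted p = 1.41e-12). SPAC977.17 had 58.7 and 60.7 CPM in clr4oe, 45.3, 53.2 and 50.2 CPM in K587A, and 143, 136 and 150.3 CPM in TetR-Mit1. It showed the same order with a narrower step between clr4oe and K587A (log2 0.27 ± 0.07 SE, edgeR adjusted p = 0.00126), and both were below TetR-Mit1 (log2 -1.26 ± 0.06 SE, edgeR adjusted p = 6.3e-15 for clr4oe and -1.53 ± 0.06 SE, edgeR adjusted p = 3.31e-17 for K587A).

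The list of 7 genes of glycerol synthesis and use was chosen with earlier results of these data known. In K587A 4 of the 6 other genes were lower and 1 higher than in TetR-Mit1, and in clr4oe 1 was lower and 3 higher. For comparison, the share of all tested genes that passed as lower was 25% in K587A and 33% in clr4oe, and the share that passed as higher was 27.3% in K587A and 32.1% in clr4oe. Gld1, the glycerol dehydrogenase that makes dihydroxyacetone, had 622 ± 32.8 CPM in clr4oe (SD, n = 2), 275 ± 18.8 CPM in K587A (SD, n = 3), against 469 ± 10.2 CPM in TetR-Mit1 (SD, n = 3). Dak1, the other dihydroxyacetone kinase, was lower in K587A (log2 -1.04 ± 0.03 SE, edgeR adjusted p = 3.01e-18). Its log2 fold change in clr4oe was 0.06 ± 0.04 SE, edgeR adjusted p = 0.148, where dak2 fell. Gut2, the mitochondrial glycerol-3-phosphate dehydrogenase, was lower in clr4oe (log2 -0.45 ± 0.04 SE) and in K587A (log2 -1.06 ± 0.04 SE). Gpd3, which the list also holds, codes for glyceraldehyde-3-phosphate dehydrogenase, a glycolytic enzyme, and passed the threshold in none of the 3 comparisons.

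**Figure D2:**
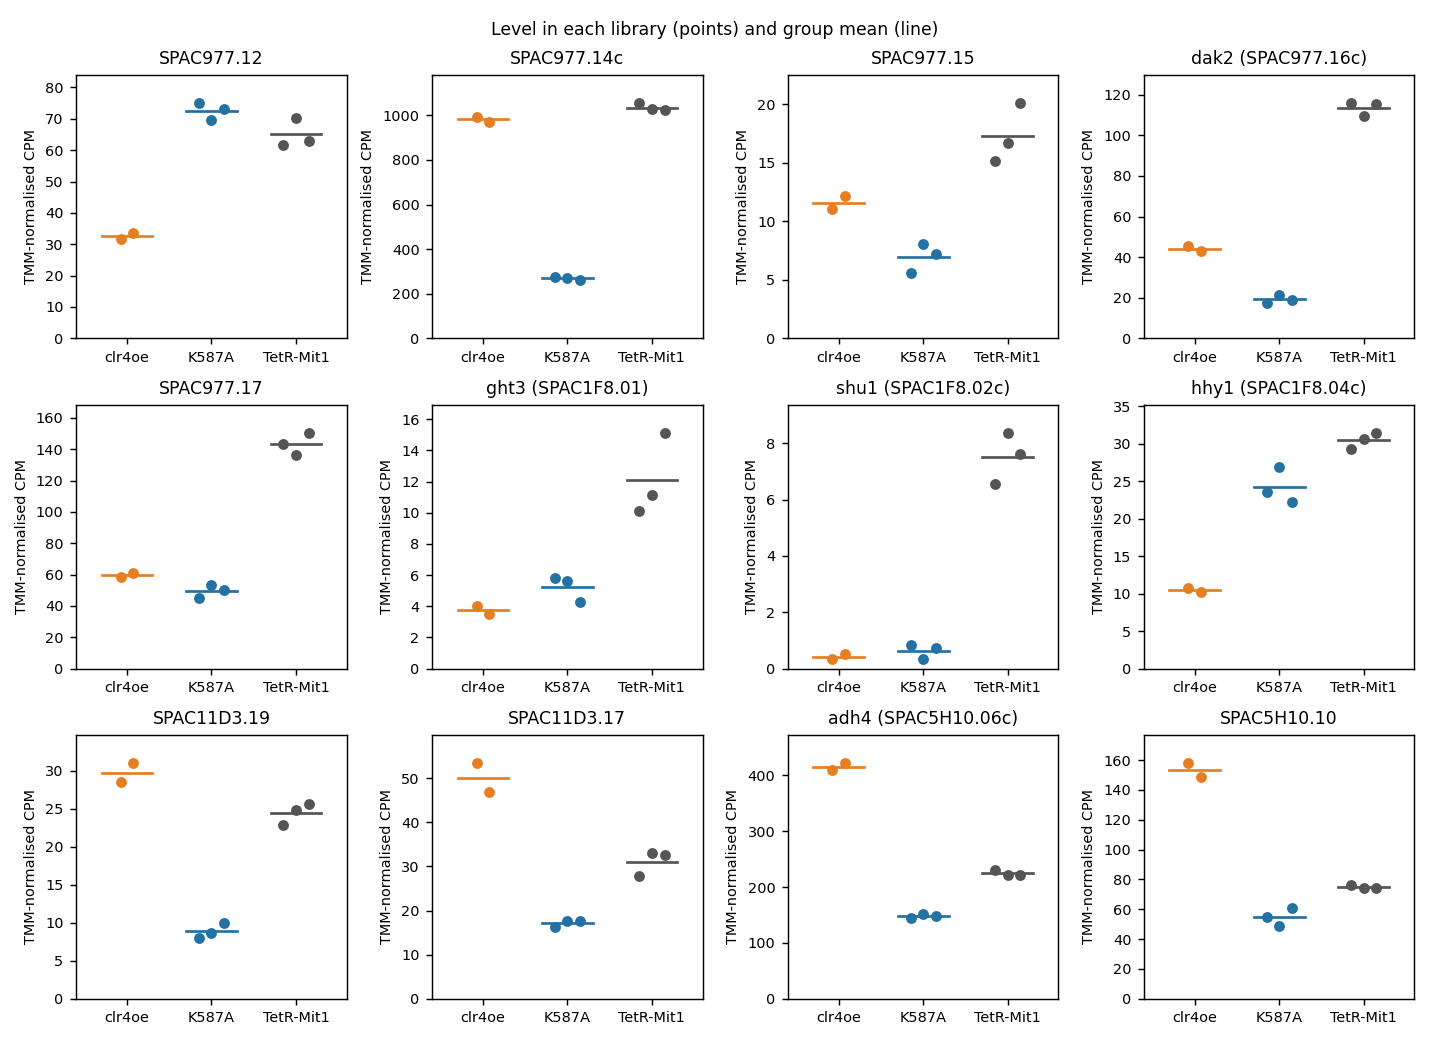
TMM-normalised CPM (y axis, from 0) of 12 genes of the stretch in each library of clr4oe (2 points), K587A (3 points) and TetR-Mit1 (3 points), with lines at the group means. From dak2 to hhy1 all clr4oe and K587A points lie below all TetR-Mit1 points, whereas for SPAC11D3.17, adh4 and SPAC5H10.10 clr4oe lies above and K587A below TetR-Mit1.

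Transporters for gluconate and heme come next. Ght3, a plasma membrane gluconate:proton symporter of the hexose transporter family, had 3.997 and 3.51 CPM in clr4oe, 5.82, 5.64 and 4.28 CPM in K587A, and 10.09, 11.1 and 15.1 CPM in TetR-Mit1. All clr4oe and K587A libraries were below all TetR-Mit1 libraries (log2 -1.69 ± 0.21 SE, edgeR adjusted p = 1.03e-07 for clr4oe and -1.18 ± 0.17 SE, edgeR adjusted p = 2.75e-06 for K587A). Clr4oe and K587A themselves were not separated at the threshold (log2 -0.51 ± 0.24 SE, edgeR adjusted p = 0.058), although they were with upper-quartile scaling (log2 -0.57, edgeR adjusted p = 0.0324) or without K587A replicate 3 (log2 -0.61, edgeR adjusted p = 0.0334). Of the 7 other ght genes, 1 was lower and 4 were higher in clr4oe than in TetR-Mit1, and 6 were lower in K587A, beside 33% lower and 32.1% higher in clr4oe and 25% lower in K587A over all tested genes. Ght1, a hexose transporter, fell in K587A (log2 -1.18 ± 0.06 SE, edgeR adjusted p = 1.75e-14) and rose slightly in clr4oe (log2 0.28 ± 0.06 SE, edgeR adjusted p = 0.000263).

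Shu1, a cell-surface protein for heme uptake, had the largest fold changes against TetR-Mit1 among the 52 tested genes. It had 5 and 7 counts in clr4oe, 12, 5 and 7 counts in K587A, and 94, 115 and 114 counts in TetR-Mit1. The levels were 0.345 and 0.501 CPM in clr4oe, 0.822, 0.328 and 0.713 CPM in K587A, and 6.54, 8.36 and 7.62 CPM in TetR-Mit1. The low counts leave wide errors on the log2 fold changes of -4.13 ± 0.36 SE, edgeR adjusted p = 2.65e-10 in clr4oe and -3.61 ± 0.29 SE, edgeR adjusted p = 1.41e-10 in K587A, but every library of either was far below every TetR-Mit1 library. The clr4oe and K587A libraries overlapped. Shu1 averaged under 5 CPM and is shown as the direct neighbour of ght3. Of the 9 other genes in the list for iron and heme uptake and its regulators, 6 were lower and 1 higher in clr4oe than in TetR-Mit1, and 5 were lower and 3 higher in K587A. The shares of all tested genes were 33% lower and 32.1% higher in clr4oe, and 25% lower and 27.3% higher in K587A. Str1, a siderophore-iron transporter, was lower in clr4oe by a log2 fold change of -3.03 ± 0.06 SE and in K587A by -0.19 ± 0.04 SE. The iron permease gene fip1 and its partner oxidase gene fio1 fell in clr4oe (log2 -1.50 ± 0.06 and -1.47 ± 0.11 SE) and rose in K587A (log2 0.26 ± 0.05 and 0.71 ± 0.08 SE).

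Hhy1, isp3 and pfl8 lie beyond these transporter genes. Hhy1, annotated as a hydrolase, had 10.7 and 10.2 CPM in clr4oe, 23.6, 26.9 and 22.2 CPM in K587A, and 29.4, 30.6 and 31.4 CPM in TetR-Mit1. Clr4oe was lowest and did not overlap the others (log2 -1.54 ± 0.11 SE, edgeR adjusted p = 1.12e-11 against TetR-Mit1 and -1.22 ± 0.12 SE, edgeR adjusted p = 1.02e-09 against K587A), and K587A was slightly below TetR-Mit1 (log2 -0.32 ± 0.09 SE, edgeR adjusted p = 0.00398). Isp3, a protein of the spore wall made in meiosis, had 24.5 and 23.3 CPM in clr4oe, 14.5, 14.4 and 14.9 CPM in K587A, and 23.9, 22.8 and 24.01 CPM in TetR-Mit1. K587A stood below both other genotypes (log2 -0.69 ± 0.09 SE, edgeR adjusted p = 9.07e-07 against TetR-Mit1), which overlapped each other. Pfl8, a cell-surface glycoprotein, had 20.0 and 21.0 CPM in clr4oe, 32.8, 27.7 and 28.7 CPM in K587A, and 40.1, 36.4 and 35.8 CPM in TetR-Mit1, and all 3 genotypes were apart, with clr4oe lowest (log2 -0.87 in clr4oe and -0.33 in K587A against TetR-Mit1).

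The 9 genes from SPAC977.14c to pfl8 were thus all lower in K587A than in TetR-Mit1, a run in gene order that was picked out after its values were seen. In clr4oe the 6 genes from SPAC977.15 to hhy1 were likewise all below TetR-Mit1, by log2 fold changes of -4.13 to -0.58. Of all tested genes 25% passed as lower in K587A and 33% in clr4oe. Of the pair of genes at the inner side of the run, pdc101 and SPAC1F8.08, neither was lower in K587A. SPAC1F8.08, uncharacterised, ran from 21.8 to 31.6 CPM, and its fall in clr4oe (log2 -0.25 ± 0.10 SE, edgeR adjusted p = 0.0311) was lost with DESeq2 (adjusted p = 0.0502) and without TetR-Mit1 replicate 1 (log2 -0.21) or clr4oe replicate 2 (log2 -0.15). The order is that of the genes reported here, and dak2 and SPAC977.17 are the only pair in these runs whose annotated coding genes overlap.

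One fermentation gene, pdc101, gave most of the counts of the stretch. Pdc101, a pyruvate decarboxylase, which turns pyruvate into acetaldehyde, had 7904 and 7582 CPM in clr4oe, 7795, 7589 and 7939 CPM in K587A, and 6026, 5911 and 5950.5 CPM in TetR-Mit1. Per kilobase of annotated transcript this was 4110 CPM in clr4oe, 4126 CPM in K587A and 3165 CPM in TetR-Mit1, beside medians over the 54 genes of 20.8, 18.9 and 23.6 CPM per kilobase. Pdc101 was 1.30-fold higher in clr4oe (log2 0.38 ± 0.03 SE, edgeR adjusted p = 8.13e-10) and in K587A (log2 0.38 ± 0.03 SE, edgeR adjusted p = 1.83e-10) than in TetR-Mit1, and clr4oe and K587A overlapped. It made up 62.4% to 63.5% of the counts of the 54 genes in clr4oe, 71.8% to 72.6% in K587A and 58.4% to 58.5% in TetR-Mit1. Without pdc101 the other genes together took 0.458% and 0.462% of all counts in clr4oe, 0.281% to 0.285% in K587A and 0.442% to 0.447% in TetR-Mit1.

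Adh4, an alcohol dehydrogenase further inward, had 409 and 422 CPM in clr4oe, 145, 152 and 149 CPM in K587A, and 231, 222 and 222 CPM in TetR-Mit1. The 3 genotypes were well apart, with clr4oe 1.85-fold above TetR-Mit1 (log2 0.88 ± 0.04 SE, edgeR adjusted p = 2.29e-16), K587A at 66.0% of TetR-Mit1 (log2 -0.60 ± 0.04 SE, edgeR adjusted p = 5.95e-13), and clr4oe 2.80-fold above K587A (log2 1.48 ± 0.04 SE, edgeR adjusted p = 6.41e-21). In the list of pyruvate decarboxylases and alcohol dehydrogenases, 3 of 3 other tested genes, pdc201, pdc202 and adh1, were higher in clr4oe than in TetR-Mit1 (log2 0.55 ± 0.08, 0.50 ± 0.09 and 0.74 ± 0.03 SE), as were 32.1% of all tested genes. In K587A adh1 alone among these was higher (log2 0.15 ± 0.03 SE, edgeR adjusted p = 0.000269), and the other pair did not pass. The list also holds pdc102, which matched no row by its symbol and was not tested.

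**Figure D3:**
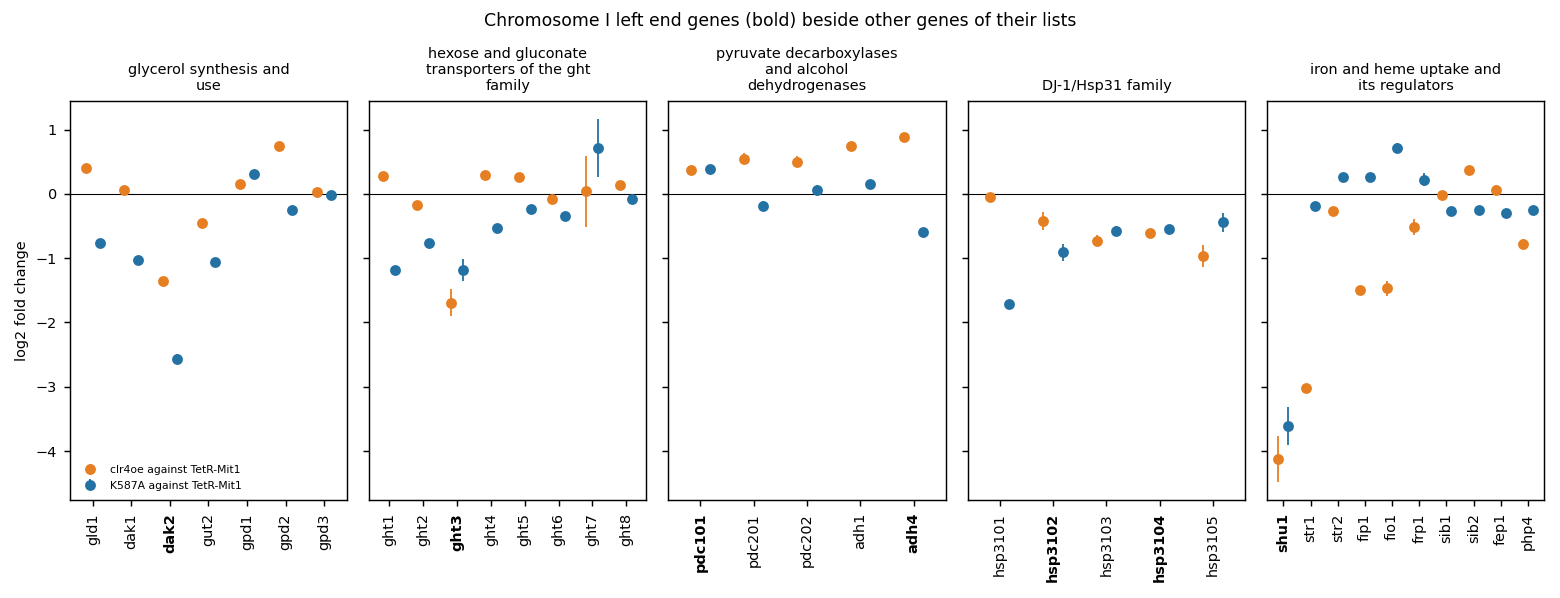
Log2 fold change against TetR-Mit1 (y axis, bars are SE) of the genes in 5 lists, for clr4oe (orange) and K587A (blue), with genes of the chromosome I left end in bold. Dak2 lies below the other glycerol genes in both genotypes, and in clr4oe ght3 lies below the other ght genes.

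The 18 genes named SPAC11D3 gave 7 higher and 8 lower in clr4oe against TetR-Mit1, 1 higher and 10 lower in K587A, and 9 higher and 5 lower in clr4oe against K587A. Of all tested genes 32.1% were higher and 33% lower in the first of these comparisons, 27.3% and 25% in the second, and 35.4% and 36.4% in the last. SPAC11D3.19, of unknown function, had 28.5 and 31.0 CPM in clr4oe, 8.011, 8.59 and 9.99 CPM in K587A, and 22.8, 24.8 and 25.6 CPM in TetR-Mit1. K587A was the low genotype (log2 -1.48 ± 0.11 SE, edgeR adjusted p = 2.45e-11), and clr4oe was 3.39-fold above it (log2 1.76 ± 0.12 SE, edgeR adjusted p = 7.11e-13). The small rise of clr4oe over TetR-Mit1 (log2 0.28 ± 0.10 SE, edgeR adjusted p = 0.0165) was lost without TetR-Mit1 replicate 1 (log2 0.24) or clr4oe replicate 2 (log2 0.23). SPAC11D3.01c, a Con-6 family protein, had 7.44 and 10.2 CPM in clr4oe, 7.05, 8.46 and 6.93 CPM in K587A, and 17.6, 15.4 and 16.9 CPM in TetR-Mit1, with both other genotypes below TetR-Mit1 (log2 -0.92 ± 0.15 SE, edgeR adjusted p = 7.09e-06 for clr4oe and -1.14 ± 0.14 SE, edgeR adjusted p = 1.31e-07 for K587A). Clr4oe and K587A overlapped (log2 0.22 ± 0.17 SE, edgeR adjusted p = 0.243). Without clr4oe replicate 1 that difference passed (log2 0.43, edgeR adjusted p = 0.0497), and without clr4oe replicate 2 it was -0.0031.

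SPAC11D3.02c, annotated as an acetyltransferase of the ELLA family, had 218 and 209 CPM in clr4oe, 90.4, 78.8 and 86.9 CPM in K587A, and 152, 156 and 142 CPM in TetR-Mit1. Clr4oe was highest and K587A lowest, with no overlap (log2 0.51 ± 0.05 SE, edgeR adjusted p = 2.56e-09 for clr4oe and -0.81 ± 0.05 SE, edgeR adjusted p = 6.89e-13 for K587A against TetR-Mit1). Its neighbour SPAC11D3.03c was lower in K587A (log2 -0.39), and SPAC11D3.04c, which is annotated with a SnoaL-like polyketide cyclase domain, was higher there (log2 0.46 ± 0.06 SE, edgeR adjusted p = 4.43e-07). SPAC11D3.04c had 52.2 and 60.1 CPM in clr4oe, 92.0, 84.2 and 91.6 CPM in K587A, and 64.9, 67.9 and 61.5 CPM in TetR-Mit1. The fall of that gene in clr4oe (log2 -0.21, edgeR adjusted p = 0.0120) was lost without TetR-Mit1 replicate 2 (log2 -0.17) or clr4oe replicate 1 (log2 -0.11).

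A pair of neighbours further inward rose in clr4oe and fell in K587A. SPAC11D3.16c, uncharacterised, had 102 and 97.1 CPM in clr4oe, 40.7, 46.1 and 45.7 CPM in K587A, and 61.1, 59.7 and 64.4 CPM in TetR-Mit1. The 3 genotypes did not overlap (log2 0.69 ± 0.06 SE, edgeR adjusted p = 5.01e-10 for clr4oe and -0.49 ± 0.06 SE, edgeR adjusted p = 3.46e-07 for K587A against TetR-Mit1). SPAC11D3.17, a transcription factor of the fungal zinc cluster type, had 53.4 and 46.8 CPM in clr4oe, 16.2, 17.6 and 17.5 CPM in K587A, and 27.8, 33.1 and 32.5 CPM in TetR-Mit1. It also showed clr4oe above TetR-Mit1 and K587A below it (log2 0.69 ± 0.09 SE, edgeR adjusted p = 2.63e-07 and -0.86 ± 0.09 SE, edgeR adjusted p = 2.26e-08), and clr4oe was 2.93-fold above K587A (log2 1.55 ± 0.10 SE, edgeR adjusted p = 2.18e-13). The next gene, the carboxylic acid transporter gene SPAC11D3.18c, ran from 22.0 to 35.4 CPM and was higher in clr4oe (log2 0.26 ± 0.10 SE, edgeR adjusted p = 0.0211), a call lost with upper-quartile scaling (log2 0.21) and without TetR-Mit1 replicate 1 (log2 0.22) or clr4oe replicate 2 (log2 0.13). Between SPAC11D3.04c and SPAC11D3.16c no gene changed by 2-fold in any comparison. Among them an amino-acid permease, SPAC11D3.08c, was higher in clr4oe (log2 0.18) and lower in K587A (log2 -0.23). Of the 2 oxoprolinases, which open 5-oxoproline to glutamate, SPAC11D3.15 was lower in clr4oe (log2 -0.26, edgeR adjusted p = 0.00015). The other, SPAC11D3.14c, overlaps hsp3104 on the opposite strand, and its rise in clr4oe (log2 0.21) was lost without clr4oe replicate 1 (log2 0.12). Over the 8 libraries the membrane transporter gene mfs2 ran from 19.2 to 25.3 CPM, the MatE family transporter gene SPAC11D3.06 from 51.5 to 60.7 CPM and the agmatinase gene SPAC11D3.09, whose enzyme cleaves agmatine to putrescine and urea, from 29.9 to 43.0 CPM. The transcription factor gene toe4 ran from 88.2 to 111 CPM, the cysteine desulfurase family gene SPAC11D3.10 from 12.3 to 20.1 CPM and SPAC11D3.11c, annotated as a truncated zinc cluster protein, from 43.2 to 55.4 CPM. SPAC11D3.11c fell in clr4oe (log2 -0.28 ± 0.07 SE, edgeR adjusted p = 0.0012 against TetR-Mit1). Toe4, which overlaps SPAC11D3.06 on the opposite strand, was lower in K587A than in TetR-Mit1 (log2 -0.19 ± 0.05 SE, edgeR adjusted p = 0.00216). In clr4oe toe4, mfs2 and SPAC11D3.10 passed as lower than TetR-Mit1 (log2 -0.14, -0.28 and -0.37), and each call was lost under some alternative. SPAC11D3.09 was higher in clr4oe than in K587A (log2 0.35 ± 0.09 SE, edgeR adjusted p = 0.00101).

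The stretch holds 2 genes of the Hsp31 family, glyoxalase III enzymes that convert methylglyoxal to lactate. Hsp3104 had 77.8 and 83.2 CPM in clr4oe, 87.8, 80.7 and 83.2 CPM in K587A, and 121, 126 and 121 CPM in TetR-Mit1. All clr4oe and K587A libraries were below all TetR-Mit1 libraries (log2 -0.61 ± 0.05 SE, edgeR adjusted p = 4.22e-10 for clr4oe and -0.55 ± 0.05 SE, edgeR adjusted p = 6.31e-10 for K587A). Hsp3102, which overlaps the D-glutamate cyclase gene dgc1 (18.2 to 24.3 CPM, past the threshold in no comparison) on the opposite strand, had 15.8 and 12.3 CPM in clr4oe, 12.2, 8.86 and 8.66 CPM in K587A, and 19.1, 19.9 and 17.5 CPM in TetR-Mit1. It was lower in K587A (log2 -0.91 ± 0.13 SE, edgeR adjusted p = 2.94e-06), and its fall in clr4oe (log2 -0.42 ± 0.14 SE, edgeR adjusted p = 0.0113) was lost without clr4oe replicate 2 (log2 -0.25). The 3 other family members, hsp3101, hsp3103 and hsp3105, were also lower in K587A (log2 -1.72 ± 0.05, -0.58 ± 0.08 and -0.44 ± 0.15 SE), as were 25% of all tested genes. In clr4oe hsp3103 and hsp3105 were lower (log2 -0.73 ± 0.09 and -0.96 ± 0.18 SE), while hsp3101 was not separable from TetR-Mit1 (log2 -0.05 ± 0.05 SE, edgeR adjusted p = 0.319).

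Oxidoreductase genes of the SPAC5H10 names rose in clr4oe and fell in K587A. SPAC5H10.04 and SPAC5H10.10 are NADPH dehydrogenases whose proteins are 57.1% identical, and SPAC5H10.05c is an FAD-binding oxidoreductase that overlaps SPAC5H10.04 on the opposite strand. SPAC5H10.04 had 123 and 123 CPM in clr4oe, 56.0, 60.5 and 56.4 CPM in K587A, and 80.5, 83.5 and 83.7 CPM in TetR-Mit1. SPAC5H10.05c had 122 and 118 CPM in clr4oe, 57.5, 59.4 and 62.3 CPM in K587A, and 81.5, 79.3 and 82.5 CPM in TetR-Mit1. In both, clr4oe was above and K587A below TetR-Mit1 with no overlap (SPAC5H10.04, log2 0.58 ± 0.05 SE, edgeR adjusted p = 6.07e-10 and -0.52 ± 0.05 SE, edgeR adjusted p = 6.2e-09). SPAC5H10.05c moved by a similar amount (log2 0.56 ± 0.05 SE, edgeR adjusted p = 1.04e-09 in clr4oe and -0.45 ± 0.05 SE, edgeR adjusted p = 7.76e-08 in K587A). As the strand setting of the counts is not given, reads of the shared part may be counted for the wrong gene. The values of SPAC5H10.04 and SPAC5H10.05c cannot be taken as independent. SPAC5H10.10 had 158 and 148 CPM in clr4oe, 55.0, 48.9 and 61.1 CPM in K587A, and 76.5, 74.1 and 74.4 CPM in TetR-Mit1, and was 2.81-fold higher in clr4oe than in K587A (log2 1.49 ± 0.06 SE, edgeR adjusted p = 1.36e-16; 1.03 ± 0.06 SE, edgeR adjusted p = 1.96e-13 for clr4oe and -0.46 ± 0.06 SE, edgeR adjusted p = 1e-06 for K587A against TetR-Mit1). The values of adh4, which lies between them, are given above.

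The remaining genes of this section serve vitamin and sugar metabolism. Pan6 and ecm31 code for enzymes of pantothenate synthesis and overlap on the same strand. Pan6 had 109 and 111 CPM in clr4oe, 60.3, 67.5 and 61.3 CPM in K587A, and 72.0, 70.2 and 73.0 CPM in TetR-Mit1, and rose in clr4oe (log2 0.62 ± 0.06 SE, edgeR adjusted p = 7.39e-10) and fell in K587A (log2 -0.18 ± 0.05 SE, edgeR adjusted p = 0.00698). Ecm31 ran from 17.6 to 24.5 CPM over the 8 libraries, with all 3 genotypes overlapping, and passed in no comparison. SPAC5H10.03, of the phosphoglycerate mutase family, had 705 and 760.4 CPM in clr4oe, 689, 677 and 674 CPM in K587A, and 596, 554 and 569 CPM in TetR-Mit1, and was higher than TetR-Mit1 in both (log2 0.35 ± 0.04 SE, edgeR adjusted p = 4.07e-08 for clr4oe and 0.25 ± 0.04 SE, edgeR adjusted p = 4.4e-06 for K587A). Of the 3 galactosyltransferases at the inner edge of the stretch, which add galactose to glycoproteins in the Golgi, gmh2 was higher in clr4oe (log2 0.30 ± 0.04 SE, edgeR adjusted p = 2.95e-07) and otg1 lower (log2 -0.23 ± 0.06 SE, edgeR adjusted p = 0.000866). Gmh1, which overlaps otg1 on the opposite strand, ran from 23.2 to 26.5 CPM over the 8 libraries and passed in no comparison. Among the 12 SPAC5H10 genes, 7 were higher and 2 lower in clr4oe against TetR-Mit1 and 1 was higher and 7 lower in K587A, with median log2 fold changes of 0.33 and -0.15. Among all tested genes 32.1% were higher and 33% lower in clr4oe, and 27.3% higher and 25% lower in K587A.

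By name group, the median log2 fold change in clr4oe against TetR-Mit1 was -0.87 for the 3 SPAC212 genes, -0.60 for the 12 tested SPAC977 genes, -0.87 for the 7 SPAC1F8 genes, -0.058 for the 18 SPAC11D3 genes and 0.33 for the 12 SPAC5H10 genes. All 8 falls of at least 2-fold in clr4oe lay within the first 3 of these groups. They were 1 in SPAC212, 4 in SPAC977 and 3 in SPAC1F8, and 3.07% of all tested genes fell this far. Those in SPAC977 include the low-count genes SPAC977.04 and SPAC977.06, whose limits are given above. In K587A the medians in the same order were -0.26, -0.23, -0.33, -0.19 and -0.15. The 9 falls of at least 2-fold in K587A were 5 in SPAC977, 2 in SPAC1F8 and 2 in SPAC11D3. Of all tested genes 1.41% fell this far in K587A. These are descriptions of the groups named, and the differences between groups were not tested.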

How the data were processed

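Poly(A) RNA of 3 genotypes was sequenced, and the authors deposited read counts per gene for 8 libraries, produced with STAR per the file headers. The submitters' processing notes also name SAMtools, DESeq2 and genome build ASM294v2. Strand, multi-mapping settings and versions are not given in the sources used here. The labels list 9 samples, and clr4oe replicate 3 is not analysed here. Gene names, products, order, overlaps and protein identity came from RefSeq assembly ASM294v3 (4906 of 4915 identifiers matched), and no coordinates are printed. The 54 genes and the gene lists were chosen with earlier results of these data known, and 1 further row with these identifiers and the list of heterochromatin genes, apart from clr4 and mit1, are not reported here.

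Counts were filtered with filterByExpr (28 genes removed, 4887 tested), scaled by TMM and tested with edgeR 4.0.16 in R 4.3.3. One quasi-likelihood fit held all 8 libraries, with genotype as the only term and Benjamini-Hochberg adjustment over all tested genes. Depth sets the precision of low genes, and 3 counts were taken as the detection limit. A gene is given library by library where it passed an adjusted p of 0.05 with at least a 2-fold change in any comparison and averaged at least 5 CPM. Its neighbours and genes sharing its role were added. The steps were tested on simulated data. The alternatives tried were upper-quartile and median-of-ratios scaling, DESeq2 1.42.0, other filters on low counts, pairwise fits, a replicate block, omission of genes with near-identical copies, and leaving out each library.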

Additional observations from a re-analysis of the deposited data

How the results depend on the processing

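The 3 counts of genes past the adjusted p of 0.05, and the 3 counts that also required a 2-fold change, stayed within 1.5 times their values under each alternative that was run. Leaving out 1 library at a time gave 34 to 40 genes for clr4oe against TetR-Mit1, 30 to 32 for K587A against TetR-Mit1 and 29 to 34 for clr4oe against K587A, and with the 2-fold requirement 8 to 12, 8 to 11 and 12 to 13. Where a clr4oe library was left out, the lone clr4oe library was assumed to vary like those of the other genotypes. The other alternatives gave 36 to 42, 29 to 34 and 31 to 36 genes. The correlations of same-numbered deviations between K587A and TetR-Mit1 were 0.0965, -0.0463 and 0.0909. K587A replicates 1 and 3 correlated best with the TetR-Mit1 replicate of the same number, and K587A replicate 2 with TetR-Mit1 replicate 3 (0.0606). With so few libraries, correlations this small cannot show whether replicate numbers pair the libraries. With the replicate block 41, 33 and 33 genes passed, and 11, 10 and 12 with the 2-fold requirement. Of the genes called, 29 of 41, 29 of 33 and 26 of 35 were called in every alternative that could give a value. SPAC11D3.01c changed sign in clr4oe against K587A, to a log2 fold change of -0.0031 without clr4oe replicate 2 (0.22 with all libraries, neither past the threshold), and to 0.43, past it, without clr4oe replicate 1; the cause was not tested. Depth limited ayr2 and plb4, with at most 4 counts in a library, and left wide errors for shu1, SPAC977.04 and SPAC977.06. Each genotype is 1 strain number, and only 2 clr4oe libraries were used.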
